A study of Homo sapiens with 50 samples.

Results

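The comparison described here is that of H1299shRAD9 with H1299 cells after direct irradiation, on 20 of the 50 arrays of the series. H1299 is a human non-small cell lung carcinoma line, and H1299shRAD9 cells are H1299 cells infected with the viral vector pSUPER.retro.puro.siRNA, from which a short hairpin RNA directed against RAD9 is expressed. The members were chosen by label alone, as all 10 H1299shRAD9 and all 10 H1299 arrays labelled directly irradiated. In each line, 5 arrays came from dishes that correspond to bystander positive dishes (DBP) and 5 from dishes that correspond to bystander negative dishes (DBN), all exposed to 1 Gy of 4He ions and taken at 4 h. Dishes had been selected by their micronuclei. The unirradiated controls (CTL, sham irradiated, 5 arrays per line) and the bystander arrays (10 per line) are used below only to show where the irradiated cells differ. The control line is untransfected H1299, so the hairpin, the vector and the selection of stable cells differ between the lines together and cannot be told apart. A pair of independent stable transfectants was used interchangeably in the study, and which of them each array came from is not given in the sources used here.

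RAD9 is a subunit of the 9-1-1 clamp, the ring of RAD9, RAD1 and HUS1 that is loaded onto DNA at sites of damage or stalled replication. The loaded clamp brings TOPBP1 to the kinase ATR, which then phosphorylates CHK1 and holds the cell cycle. RAD9 has also been described as a binder of promoter DNA and as a factor in mismatch and base excision repair. H1299 cells are known to lack p53 protein, so the p53 arm of the damage response is missing in both lines.

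On the irradiated arrays, the share of probes well above background was 55.1 to 65.7% (median 60.9%) in H1299shRAD9 and 62.2 to 83.2% (median 63.4%) in H1299, a difference of the means of 5.48 percentage points (exact permutation test within exposure group, 2-sided, p = 0.0112). VIM, KRT8, KRT18 and CDH2, which are expressed in this line, were above background on all 20 arrays. Of the markers of other cell types, the features of PECAM1, ALB, COL1A1 and GFAP were above background on at most 2 of 10 arrays of a line, while those of PTPRC and CDH5 were above it on all 20. Of 13 slides, 1 carried irradiated arrays of both lines, as did 1 of 6 scan days, so that slide and line are largely confounded. The study's methods call the replicates independent samples and say no more of their cultures.

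The transcript that the hairpin is directed against was examined first. RAD9A was measured by 1 feature (hg19 chr11:67165480-67165539), on which levels are log2 intensities relative to the median probe of the array. In H1299shRAD9 it was at 3.52 to 4.26 (median 3.74), and in H1299 at 2.9 to 4.58 (median 4.07). The arrays of the lines overlapped. The mean was 0.14 lower in H1299shRAD9, which is 90.6% of the H1299 level. Regrouping the line labels often gave a difference this large (2-sided exact permutation test within exposure group, 63504 regroupings, p = 0.427). The test took same-numbered DBP and DBN arrays as independent. Scaled on the 75th percentile, the mean was 0.25 lower (p = 0.0781, exact). The difference in CTL was −0.36 (limma, adjusted p = 0.0561). RAD9 protein was not measured on these arrays. The study reports from a Western blot that RAD9 protein was reduced in its stable transfectants relative to untransfected H1299.

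Before the line difference is described, a feature of the arrays has to be given, since many values below rest on it. In H1299shRAD9, replicates 1 and 2 (4 arrays) stood apart from replicates 3 to 5 (6 arrays), in DBP and DBN alike. DSP, the desmoplakin of desmosomes, had a level of −1.73 to −1.35 in replicates 1 and 2 and of 3.2 to 3.46 in replicates 3 to 5, with H1299 at 3.21 to 5.24. STAT6, the transcription factor of interleukin-4 signalling, was at −2.12 to −0.31 and at 3.61 to 3.82, with all 10 H1299 arrays between 1.44 and 2.59. MGMT, which removes alkyl groups from guanine in DNA, went the other way, with 2.71 to 3.12 in replicates 1 and 2, as in H1299 (2.26 to 3.18), and −1.71 to −0.93 in replicates 3 to 5. These genes were chosen after their values were seen.

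The division was not particular to the irradiated arrays. Of the 12186 features tested, 87 (0.714%) differed at least 4-fold between replicates 1 and 2 and replicates 3 to 5 of irradiated H1299shRAD9 with no overlap, 45 higher and 42 lower in replicates 1 and 2. On the unirradiated H1299shRAD9 arrays, 86 of these 87 were again without overlap in the same direction, and on the bystander arrays 85 were. In replicates 1 and 2, the retinoid receptor gene RXRA and the homeobox gene IRX3 were above background on 0 of 4 H1299shRAD9 arrays and were at least 8.01-fold and 10.5-fold lower than in H1299. In replicates 3 to 5 their line differences were 1.17 and 0.63. CLEC11A (a secreted growth factor) had a line difference of −0.10 in replicates 1 and 2 and −5.27 in replicates 3 to 5, and PXDN (peroxidasin, a matrix peroxidase) one of −0.05 and −4.36. The levels of 27 features were at least 2-fold higher in H1299shRAD9 in one of the 2 sets of replicates and at least 2-fold lower in the other, with no overlap of the lines in either set. None of these 27 was called in the comparison over all 20 arrays, and all 27 had the same opposite signs on the unirradiated and on the bystander arrays. They include STAT6, RXRA, SPP1 (osteopontin), TNFRSF11B (osteoprotegerin), TGFBI and ADCY7, an adenylate cyclase whose line difference was 2.25 in replicates 1 and 2 and −1.72 in replicates 3 to 5.

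H1299 itself was divided as well. At least 4-fold differences without overlap between its replicates 1 and 2 and its replicates 3 to 5 were seen for 69 features (0.566%), of which 41 were without overlap in the same direction on the unirradiated arrays and 6 on the bystander arrays. Genes of the integrated stress response, which the kinases that phosphorylate eIF2 alpha switch on when amino acids are short or the endoplasmic reticulum is loaded, were high in replicates 1 and 2 of H1299. NUPR1 was at 5.36 to 6.9 there against 1.95 to 2.57 in replicates 3 to 5. GDF15, a stress cytokine, was at 4.68 to 8.7 against 3.18 to 3.92. In H1299shRAD9, NUPR1 ranged from 0.45 to 1.99. GDF15 was at 0.75 to 1.29 in replicates 1 and 2 of H1299shRAD9 and at 2.3 to 4.00 in its replicates 3 to 5. An index of the 5′ against the 3′ signal of 3320 genes, a measure of RNA integrity, was −0.34 to 0.04 in replicates 1 and 2 of H1299 and 0.06 to 0.18 in its replicates 3 to 5, and its part in these values was not tested. Because of both divisions, results below are given over all 20 arrays and, where it matters, for replicates 1 and 2 (4 arrays per line) and for replicates 3 to 5 (6 per line), as alternatives that were chosen after the data had been seen.

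**Figure D1:**
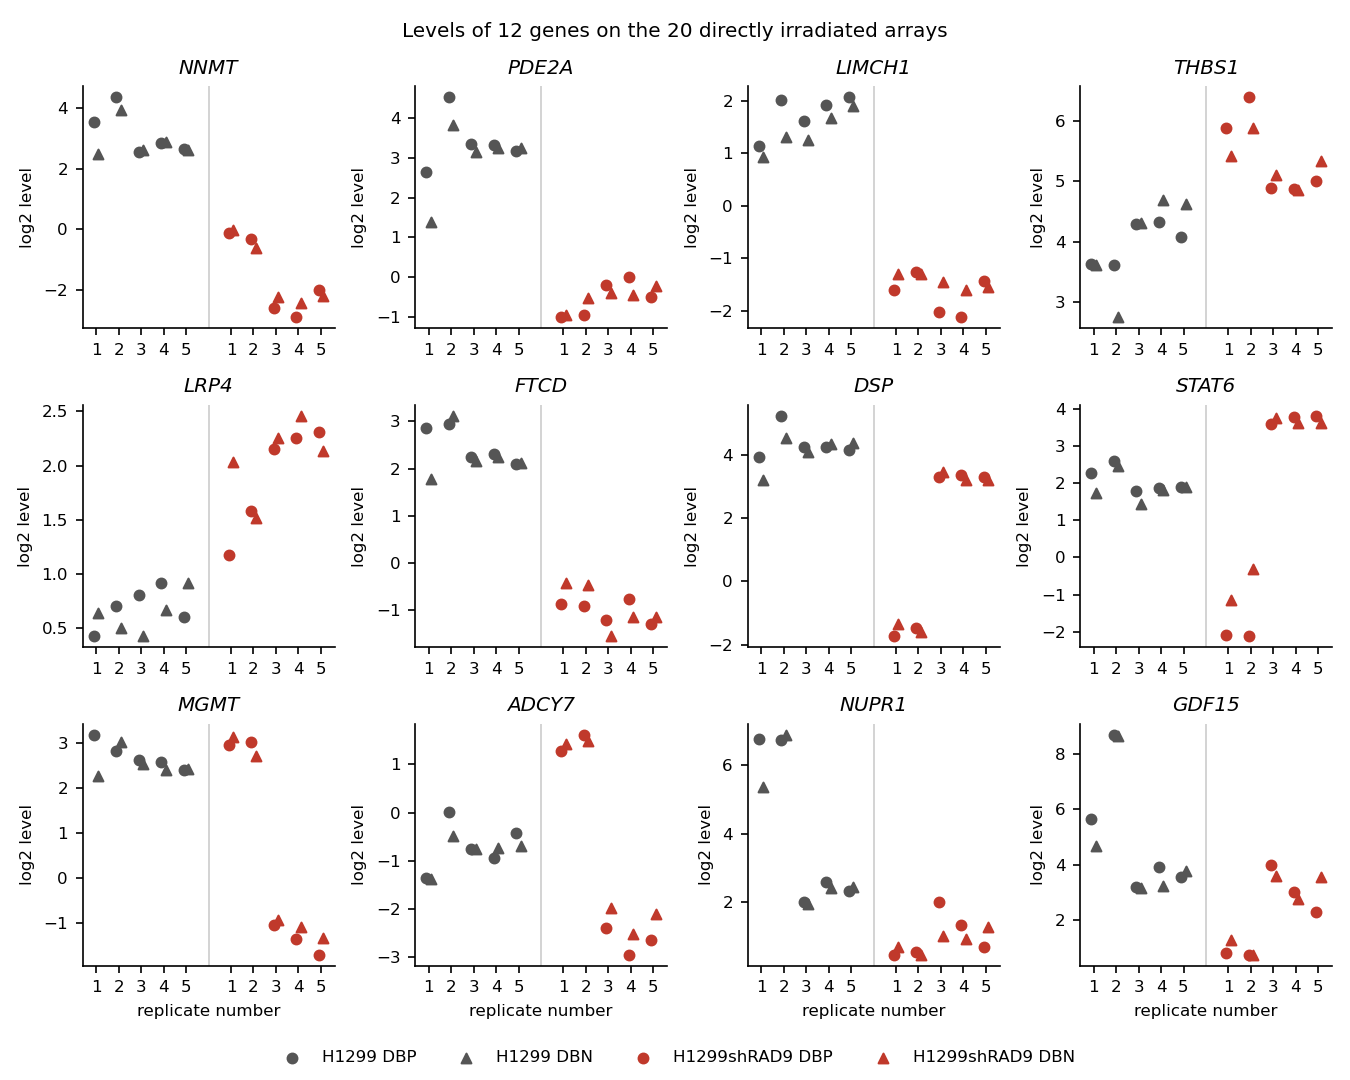
Levels (log2 intensity relative to the median probe of the array) of 12 genes on the 20 irradiated arrays, by replicate number, with H1299 at the left of each panel in grey and H1299shRAD9 at the right in red; circles are DBP, triangles DBN, 1 point per array. NNMT, PDE2A and LIMCH1 separate the lines in every replicate, whereas DSP, STAT6, MGMT and ADCY7 separate replicates 1 and 2 from 3 to 5 within H1299shRAD9, and NUPR1 within H1299.

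Over all 20 arrays, with the exposure group as a block, 2525 of 12186 features (20.7%) were differentially expressed between the irradiated lines (limma, p under 0.006 and false discovery rate under 10%), 1497 up regulated (12.3%) and 1028 down regulated (8.44%) in H1299shRAD9. Of those of at least 2-fold, 318 were lower and 136 higher in H1299shRAD9. The median feature was 0.17 (log2) higher in H1299shRAD9, and the share of calls that were higher, 59.3%, fell to 39.1% with 75th percentile scaling and to 30.2% on the authors' own normalized values. DBP and DBN arrays of the same line and number resembled each other (correlations of 0.267 to 0.619 after removing group means), and with line and replicate number together as a random block 1332 features were called, 49.8% of them higher. With replicates 3 to 5 alone 4838 features (39.7%) were called, and with replicates 1 and 2 alone 1269 (10.4%). Of the 2525 features, 2482 (98.3%) had the same sign in both. On the single scan day with both lines (1 H1299shRAD9 and 4 H1299 arrays), 94.3% of the 2525 had the same sign, against 75.1% of all features, though these arrays were themselves part of the comparison.

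In DBP alone 895 features (7.34%) were called, 269 higher (2.21%) and 626 lower (5.14%), and in DBN alone 661 (5.42%), 389 higher (3.19%) and 272 lower (2.23%). All 895 had the same sign in DBN, as did 81.9% of all features. Leaving out 1 array moved these counts to between 476 (without H1299shRAD9 DBP replicate 5) and 1201 (without H1299shRAD9 DBP replicate 1) in DBP, and to between 115 (without H1299shRAD9 DBN replicate 4) and 924 (without H1299 DBN replicate 1) in DBN. A difference of the line difference between DBP and DBN was called by limma for 0 features, with 103 at an unadjusted p under 0.05. The design recovered 6% of 2-fold interactions simulated on independent arrays.

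**Figure D2:**
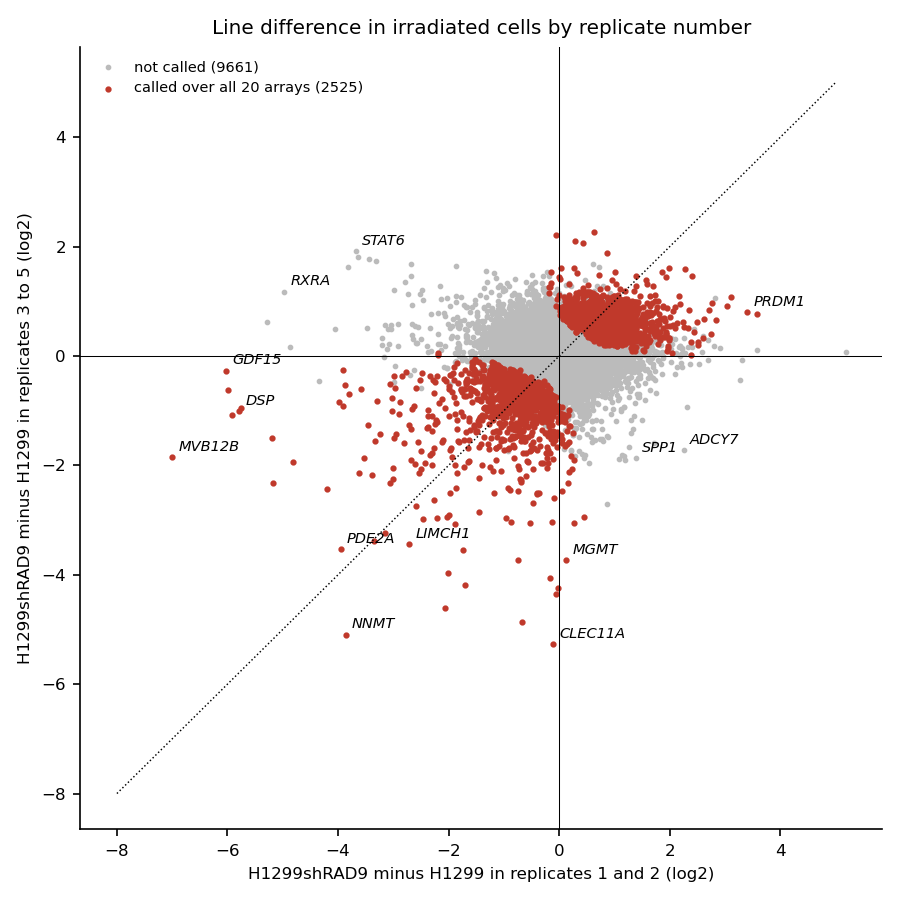
Line difference (H1299shRAD9 minus H1299, log2) of each of the 12186 features in replicates 1 and 2 (horizontal axis) and in replicates 3 to 5 (vertical axis), with the 2525 features called over all 20 arrays in red and equal differences on the dotted line. NNMT, PDE2A and LIMCH1 lie low on both axes, and MVB12B and DSP mainly on the horizontal one. CLEC11A and MGMT lie low on the vertical axis, and STAT6 and RXRA in the quadrant of opposite signs. The DSP point labelled is a dimmer feature than that in the text. This feature, MVB12B and RXRA were not above background on the 4 H1299shRAD9 arrays of replicates 1 and 2. Nor was NNMT on the 6 of replicates 3 to 5, so that these points are limits.

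The 10 irradiated arrays of one line did not overlap the 10 of the other for 185 features lower (1.52%) and 111 higher (0.911%) in H1299shRAD9, 296 in all (2.43%). NNMT, which methylates nicotinamide (chr11:114183072-114183131), had the largest fall among them. It was at −2.91 to −0.02 (median −2.11) in H1299shRAD9, where it was above background on 4 of 10 arrays, and at 2.48 to 4.37 (median 2.75) in H1299. The lines were far apart on every array, and the difference was −4.60 (SE 0.37, limma adjusted p = 8.13e-09). In replicates 1 and 2 the difference was −3.86. In replicates 3 to 5, where 0 of 6 H1299shRAD9 arrays were above background, NNMT was at least 22.9-fold lower.

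PDE2A, a cyclic nucleotide phosphodiesterase (chr11:72287250-72287309), was at −1 to 0 (median −0.47) in H1299shRAD9 and at 1.39 to 4.52 (median 3.23) in H1299. Its difference was −3.70 (SE 0.26, limma adjusted p = 4.95e-10), and replicates 1 and 2 (−3.95) and 3 to 5 (−3.53) gave similar values. FTCD, a folate and histidine enzyme, was at −1.55 to −0.43 (median −1.03) against 1.79 to 3.12 (median 2.24), a difference of −3.37 (SE 0.18, limma adjusted p = 7.89e-12). LIMCH1, which activates non-muscle myosin II (chr4:41700725-41700784), was at −2.12 to −1.26 (median −1.5) against 0.92 to 2.07 (median 1.65), a difference of −3.15 (SE 0.17, limma adjusted p = 7.89e-12). For both, the lines were well separated on every array, and they had the smallest standard errors of the 10 largest falls.

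The other 6 of the 10 largest falls were low in both sets of replicates. MVB12B (an ESCRT-I subunit) had a difference of −3.91 (SE 0.69). It was at least 39.7-fold lower in replicates 1 and 2, where 0 of 4 H1299shRAD9 arrays were above background, and had a difference of −1.86 in replicates 3 to 5. ARHGEF4 (a guanine nucleotide exchange factor) fell by 3.47, at least 13.5-fold in replicates 1 and 2, where 0 of 4 H1299shRAD9 arrays were above background, and by 2.32 in replicates 3 to 5. FBLN2 (fibulin 2, a matrix protein) fell by 3.09 (−4.81 and −1.94) and ASS1 (argininosuccinate synthase of arginine synthesis) by 2.98 (−5.20 and −1.50), with 1 and 2 of 4 H1299shRAD9 arrays of replicates 1 and 2 above background. CCK (cholecystokinin) fell by 3.59 (−2.07 and −4.60) and MAOA (monoamine oxidase A) by 3.19 (−1.70 and −4.18), with 1 and 3 of 6 H1299shRAD9 arrays of replicates 3 to 5 above background.

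The largest rises were smaller. SNORA33, a small nucleolar RNA, was at −0.89 to 0.25 (median −0.26) in H1299shRAD9 and at −4.32 to −1.1 (median −1.53) in H1299, where 7 of 10 arrays were above background, a difference of 1.86 (SE 0.37, limma adjusted p = 0.0012). ESS2, a splicing-associated nuclear protein named DGCR14 on the array, was at 0.29 to 1.87 (median 1.08) against −0.75 to −0.14 (median −0.45), a difference of 1.48 (SE 0.18, limma adjusted p = 2.69e-06). THBS1, the matrix protein thrombospondin 1, was at 4.86 to 6.39 (median 5.22) against 2.75 to 4.69 (median 4.18), a difference of 1.37 that was 2.49 in replicates 1 and 2 and 0.62 in replicates 3 to 5. None of these 3 overlapped between the lines.

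LRP4 (a receptor for agrin and a WNT antagonist) was 1.33 higher (SE 0.16), TRHDE (a peptidase of thyrotropin-releasing hormone) 1.32 higher (SE 0.22) and TAF5L (a subunit of the SAGA-type acetyltransferase complex) 1.29 higher (SE 0.30). TAF5L was lost with line and replicate number as a random block, the only one of the 20 genes that was. Also among the 10 largest rises were RRS1 (1.44, SE 0.26), PAK1IP1 (1.18, SE 0.21) and UTP20 (1.12, SE 0.23), each of which is known as a factor of ribosome assembly. RRS1 was 2.19 higher in replicates 1 and 2 and 0.95 higher in replicates 3 to 5. With slide as a fixed block, which leaves little of the line contrast, all 20 genes kept their direction and 5 their call.

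Promoter sequences are shown to compare their content of CG dinucleotides, the sites of DNA methylation. PDE2A and LIMCH1 are among the genes that were low on all irradiated H1299shRAD9 arrays. DSP and MGMT divided the replicates of H1299shRAD9 in opposite directions. These genes are examples and do not stand for their groups. Each is the 250 bases before the start of the gene in RefSeq (GRCh38.p14), 5′ to 3′ on the strand of the gene, with CG in capitals. They are chr11:72674423-72674672 (minus strand) for PDE2A, chr4:41359357-41359606 (plus) for LIMCH1, chr6:7541421-7541670 (plus) for DSP and chr10:129466991-129467240 (plus) for MGMT.
PDE2A: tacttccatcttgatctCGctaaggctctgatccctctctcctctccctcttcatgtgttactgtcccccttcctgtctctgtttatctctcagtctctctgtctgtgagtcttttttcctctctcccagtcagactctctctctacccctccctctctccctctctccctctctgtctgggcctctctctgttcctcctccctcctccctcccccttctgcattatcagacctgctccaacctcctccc
LIMCH1: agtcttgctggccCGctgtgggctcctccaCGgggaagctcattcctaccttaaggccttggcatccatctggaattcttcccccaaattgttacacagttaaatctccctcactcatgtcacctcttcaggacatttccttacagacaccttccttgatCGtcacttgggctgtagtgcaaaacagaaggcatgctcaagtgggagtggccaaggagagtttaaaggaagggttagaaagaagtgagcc
DSP: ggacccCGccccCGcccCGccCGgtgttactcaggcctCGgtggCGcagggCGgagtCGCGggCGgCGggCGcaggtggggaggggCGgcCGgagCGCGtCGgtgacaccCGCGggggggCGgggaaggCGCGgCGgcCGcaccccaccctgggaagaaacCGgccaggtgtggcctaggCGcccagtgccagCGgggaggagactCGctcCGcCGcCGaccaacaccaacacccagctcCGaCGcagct
MGMT: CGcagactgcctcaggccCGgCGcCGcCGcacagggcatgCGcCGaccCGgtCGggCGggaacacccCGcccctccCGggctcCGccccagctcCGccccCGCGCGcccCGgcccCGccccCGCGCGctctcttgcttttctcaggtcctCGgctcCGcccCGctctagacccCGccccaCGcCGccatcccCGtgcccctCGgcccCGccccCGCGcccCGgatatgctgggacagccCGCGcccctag
The promoters of PDE2A and LIMCH1 hold 1 and 3 CG, and 93.6 and 76.4% of 27305 promoters hold at least as many in the same 250 bases. Those of DSP and MGMT hold 33 and 36, which 7.9 and 4.7% of promoters reach. The features that differed at least 4-fold between the sets of H1299shRAD9 replicates belonged to 75 genes. The 55 of them with a promoter in RefSeq held 1 to 59 CG, with a median of 16 against 11 over all promoters. DSP and MGMT lie above most of them. Genes above background on all irradiated H1299 arrays and on 0 irradiated H1299shRAD9 arrays, given below, had a median of 20. PDE2A and LIMCH1 lie below most of these. The 11 was not limited to genes above background here, so no link with either group can be drawn. Methylation was not measured here.

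A further set of genes could only be bounded. On all 10 irradiated H1299 arrays, but on 0 of 10 irradiated H1299shRAD9 arrays, 69 features of 64 named genes or transcripts were well above background, and 0 features showed the reverse. On the unirradiated arrays the counts were 152 (5 of 5 H1299, 0 of 5 H1299shRAD9) and 0, and on the bystander arrays 32 (10 of 10 and 0 of 10) and 1. The overall share of probes above background was also lower in irradiated H1299shRAD9, as given above, and its part in the count of 69 was not tested. NEFL and NEFM, the light and medium neurofilament chains, were at least 13.7-fold and 9.7-fold lower in H1299shRAD9, against the lowest signal counted as above background. RFPL4A was at least 11.9-fold lower, RCAN2 (a calcineurin inhibitor) at least 8.47-fold, TSC22D3 (the glucocorticoid-induced leucine zipper protein) at least 5.74-fold and PPARG (a nuclear receptor of lipid metabolism) at least 4.94-fold. The bounds of CXCR4 (a chemokine receptor, 2.27-fold), NKX2-1 (a lung lineage transcription factor, 1.97-fold) and CCL2 (a monocyte chemokine, 1.89-fold) were lower because these genes were dim in H1299. The median bound was 2.15-fold. APBA1 was at least 6.97-fold lower by one feature, while another of its features was 0.54 higher in H1299shRAD9 and not called. On all 25 H1299 arrays of the series and on 0 of 25 H1299shRAD9 arrays, 22 of the 69 features were above background. On the bystander array H1299shRAD9 BP replicate 1, by contrast, 18 of the 69 were above background. Of the 64 names, 51 matched a promoter in RefSeq, with a median of 20 CG in 250 bases against 11 over all promoters. The latter include genes not above background here, so the excess cannot be tied to the loss in H1299shRAD9.

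The gene lists were then examined, each by its measured members, beside 11.7% of all 8852 genes called higher and 9.22% called lower. With replicates 1 and 2 alone, 5.67% of all features were called higher and 4.74% lower. With replicates 3 to 5 alone the shares were 25.6 and 14.1%, and list counts by set are to be read beside these. List medians are differences relative to the median gene over members above background. Of the 9-1-1 clamp and ATR pathway, 5 of 15 genes passed the filters, and 1 changed. TIPIN, a fork protection factor, was at 5.76 to 6.61 (median 6.35) in H1299shRAD9 and at 4.38 to 5.89 (median 5.65) in H1299, a difference of 0.88 (SE 0.18, limma adjusted p = 0.00172). In DNA repair, 4 of 32 rose and 1 fell. MGMT fell by 2.19 over all arrays, by way of replicates 3 to 5 only, where the difference was −3.73 against 0.13 in replicates 1 and 2. NBN (a subunit of the MRN complex, 0.66), BRCA2 (homologous recombination, 0.55) and MSH3 (mismatch repair, 0.47) rose over all 20 arrays, and none of these 3 calls was kept with line and replicate number as a random block.

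S phase genes were called in 1 direction. Of 25 tested, 6 rose and 0 fell, with a list median of 0.17. MCM10, a replication initiation factor, was at 3.08 to 4.53 (median 4.24) in H1299shRAD9 and at 1.8 to 3.77 (median 3.09) in H1299, a difference of 1.13 (SE 0.26, limma adjusted p = 0.00326). POLE2 (a subunit of DNA polymerase epsilon) rose by 0.81, UHRF1 (maintenance of DNA methylation) by 0.69 and UNG (uracil removal) by 0.66. In replicates 1 and 2 alone 6 rose (24%) and 0 fell. In replicates 3 to 5 alone 7 rose (28%, near the 25.6% of all features) and 1 fell. The list median was 0.38 in replicates 1 and 2 and 0.04 in replicates 3 to 5, and with the random block 4 rose. Of 29 G2/M genes, 0 were called over all 20 arrays. With replicates 3 to 5 alone 7 were called higher (24.1%), near the 25.6% of all features. Of 6 CDK inhibitor genes, CDKN1C (p57) fell by 1.28, with −2.52 in replicates 1 and 2 and −0.45 in replicates 3 to 5.

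Of immediate early genes, 6 of 26 rose and 2 fell, with a list median of 0.22. KLF2 was at 6.13 to 6.91 (median 6.42) in H1299shRAD9 and at 4.15 to 6.01 (median 5.51) in H1299, with no overlap and a difference of 1.08 (SE 0.19, limma adjusted p = 0.000433). The YAP target genes CCN2 and CCN1, named CTGF and CYR61 on the array, rose by 1.17 and 0.93, and the proto-oncogene MYC by 1.08. With replicates 3 to 5 alone 12 rose and 2 fell, and with replicates 1 and 2 alone 1 rose and 2 fell.

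Interferon-stimulated genes were called in the other direction. Of 25 tested, 0 rose and 7 fell, with a list median of −0.35. IFI44 was at −0.46 to 0.00 (median −0.32) in H1299shRAD9 and at 0.00 to 1.74 (median 0.63) in H1299, a difference of −1.05 (SE 0.18, limma adjusted p = 0.000342). IFI16 (a DNA sensor) fell by 1.09, ISG20 (an exonuclease) by 0.89 and IFIT2 (which binds viral RNA) by 0.83, and the call of IFI16 was lost with the random block. In replicates 3 to 5 alone 12 of 25 fell and 0 rose, in replicates 1 and 2 alone 2 fell and 0 rose, and with the random block 5 fell. The alternative scalings and background correction gave 5 to 11 falls and 0 rises. Of 11 genes of MHC class I presentation, 3 fell, among them HLA-F and HLA-E by 0.57, and 2 rose, among them the chaperone CANX (0.74). The calls of HLA-F, HLA-E and CANX were not kept with the random block.

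In the interleukin-4 list 2 of 13 fell and 0 rose. JAK3, a kinase of cytokine receptors, was at −0.64 to 0.45 (median 0.15) in H1299shRAD9 and at 1.09 to 2.85 (median 1.58) in H1299, with no overlap and a difference of −1.82 (SE 0.25, limma adjusted p = 2.55e-05) that was −3.02 in replicates 1 and 2 and −1.01 in replicates 3 to 5. SOCS1, an inhibitor of JAK kinases, fell by 0.62, a call that was lost with the random block. It differed by −0.03 in replicates 1 and 2 and by −1.01 in replicates 3 to 5, where 3 of 6 H1299shRAD9 arrays were above background. With replicates 3 to 5 alone 3 of the list rose and 5 fell, and with replicates 1 and 2 alone 0 rose and 2 fell. Of 14 cytokines and bystander mediators, 4 fell and 1 rose. The adhesion receptor ICAM1 fell by 2.17 (SE 0.34), with −0.88 in replicates 1 and 2 and −3.04 in replicates 3 to 5, and its 10 arrays per line did not overlap. CXCL16 and IL32 fell by 0.79 and 0.76, and GDF15 by 2.57, for which replicates 3 to 5 alone gave −0.27.

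Genes of cell identity fell more often than they rose. Of 13 epithelial genes, 5 fell and 2 rose, with a list median of −0.39. Replicates 1 and 2 alone gave 0 rises and 2 falls, and replicates 3 to 5 alone 2 rises and 8 falls. JUP (plakoglobin of desmosomes and adherens junctions) was at −0.05 to 1.03 (median 0.35) in H1299shRAD9 and at 1.00 to 2.84 (median 1.6) in H1299, a difference of −1.38 (SE 0.24, limma adjusted p = 0.000363). CLDN3 (a tight junction protein) fell by 1.21, MUC1 (a mucin) by 1.32 and DSP by 2.87. The call of MUC1 was lost with the random block. The fall of MUC1 was −0.21 in replicates 1 and 2 and −2.06 in replicates 3 to 5, and that of DSP −5.76 and −0.95. Of 14 mesenchymal genes, 4 fell and 1 rose. Replicates 1 and 2 alone gave 1 rise and 2 falls, and replicates 3 to 5 alone 2 rises and 6 falls. TWIST2, a transcription factor of mesenchymal cells, was at 2.34 to 2.88 (median 2.55) against 3.29 to 4.11 (median 3.94), a difference of −1.31 (SE 0.13, limma adjusted p = 2.58e-07). COL6A2 and COL6A1, chains of collagen VI, fell by 1.16 and 0.70, and the call of COL6A1 was lost with the random block.

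Of 21 matrix proteolysis genes, 4 fell and 0 rose. Replicates 1 and 2 alone gave 1 rise and 1 fall, and replicates 3 to 5 alone 1 rise and 6 falls. CTSH (cathepsin H) did not overlap between the lines, with 0.9 to 1.3 (median 0.97) in H1299shRAD9 against 2.57 to 4.23 (median 3.11) in H1299, a difference of −2.24 (SE 0.17, limma adjusted p = 1.59e-09). MMP1 (interstitial collagenase), CTSV and SERPINE2 fell by 0.92, 0.74 and 0.68. Of 38 actin and cytoskeleton genes, 5 fell and 0 rose. Besides LIMCH1, these were led by PDLIM1 (a LIM protein of stress fibres, −1.42), SYNPO (synaptopodin, −0.87) and CORO1B (coronin 1B, −0.84), of which SYNPO was not called with the random block. With replicates 1 and 2 alone 3 rose and 1 fell (list median 0.15), and with replicates 3 to 5 alone 3 rose and 9 fell (list median −0.11). Another feature of SYNPO differed by 1.17 in replicates 1 and 2 and by −1.83 in replicates 3 to 5. Of 18 NRF2 target genes, 4 fell and 0 rose, with AKR1C3 (an aldo-keto reductase) at −1.36, the ferritin chains FTH1 and FTL at −0.72 and −0.60, and the haem transporter SLC48A1 at −0.54. With the random block 2 fell, and the calls of FTL and SLC48A1 were lost. With replicates 3 to 5 alone 6 rose and 4 fell, with replicates 1 and 2 alone 0 rose and 3 fell, and the list median was 0.09 and −0.33.

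The integrated stress response list showed how far the divisions of both lines carried. Replicates 1 and 2 minus replicates 3 to 5 gave a list median of 1.49 in H1299 and of −0.55 in H1299shRAD9. Over all 20 arrays 2 of 33 genes fell, NUPR1 by 3.01 and PHGDH (serine synthesis) by 1.39, and 0 rose. In replicates 1 and 2 alone 19 of 33 fell and 0 rose, with a list median of −1.71. In replicates 3 to 5 alone 18 rose and 1 fell, with a list median of 0.40. CHAC1, a glutathione-degrading enzyme, had a difference of −2.69 and 1.69 in the 2 sets, ASNS (asparagine synthetase) of −2.71 and 0.59, and TRIB3 (a pseudokinase) of −3.15 and 0.56. NUPR1 was the 1 gene that fell in both.

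Of 24 HIF1 target and glycolysis genes, 3 fell and 1 rose. PDK3, a kinase that holds back pyruvate dehydrogenase, was at −1.57 to 0.61 (median −1.16) in H1299shRAD9 and at 0.49 to 1.83 (median 1.59) in H1299, a difference of −2.04 (SE 0.32, limma adjusted p = 0.000107). HK1 (hexokinase 1) fell by 1.14 and the glucose transporter SLC2A3 by 0.62, the last of which was not called with the random block. PDK3 differed by −0.52 in replicates 1 and 2 and by −3.05 in replicates 3 to 5, and HK1 by −0.17 and −1.78. With replicates 3 to 5 alone 5 of the list rose and 2 fell (20.8 and 8.33%, below the shares of all features). With replicates 1 and 2 alone 1 rose and 0 fell. Of 22 genes in the p38 and JNK kinase list, 3 rose, with PARP1 at 0.76 and MAP2K3 at 0.60. In the same list 2 fell, with MKNK2 at −0.68 and MAPK13 at −0.64. With the random block 0 rose and 1 fell. PARP1, which is not itself such a kinase, differed by −0.39 in CTL, where the study names it as reduced. Of 130 zinc finger genes of chromosome 19, 8 rose and 7 fell, a smaller share than among all genes in both directions, with the largest differences at ZNF587 (0.97), ZNF814 (0.90), ZNF234 (0.82) and ZNF556 (0.80).

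**Figure D3:**
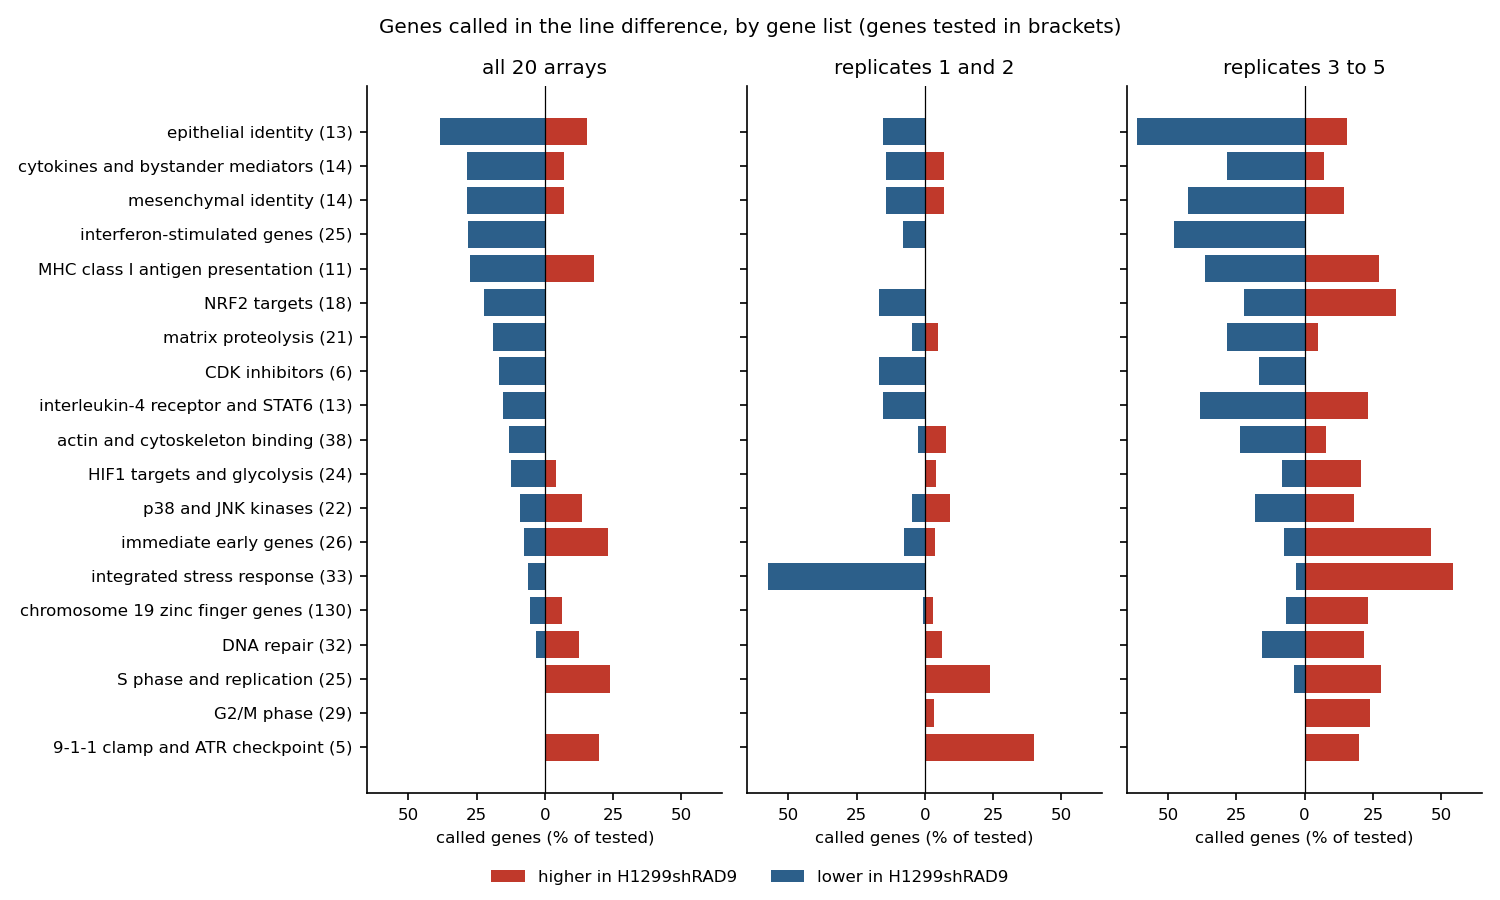
Share of the tested genes of each list (number in brackets) called higher (red, to the right) or lower (blue, to the left) in H1299shRAD9, in percent, over all 20 irradiated arrays and with replicates 1 and 2 or replicates 3 to 5 alone. Interferon-stimulated genes were called lower in all 3 panels (28% over all arrays), whereas the integrated stress response was called lower in replicates 1 and 2 (57.6%) and higher in replicates 3 to 5 (54.5%).

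Most line differences of unirradiated cells were seen again after irradiation, on separate arrays that are not independent repeats. Same-numbered CTL and irradiated arrays correlated at 0.276 to 0.75 in H1299shRAD9 and at −0.082 to 0.668 in H1299, after removing group means. The CTL and bystander arrays of H1299shRAD9 also carry the same division by replicate number. In CTL 2041 features were called (16.7%), 1051 higher (8.62%) and 990 lower (8.12%) in H1299shRAD9. Of these, 1188 (58.2%) were called in the same direction in irradiated cells and 0 in the opposite one, and 1988 (97.4%) had the same sign, against 79.6% of all features. The median ratio of the irradiated to the unirradiated difference was 0.86. Of the 431 CTL differences of at least 2-fold, 332 (77%) were called in irradiated cells. On bystander arrays, where 3028 features (24.8%) were called, 1932 higher (15.9%) and 1096 lower (8.99%), 1850 of the 2525 (73.3%) were called and 2525 of 2525 had the same sign. NNMT was −4.45 in CTL and −4.60 in irradiated cells, PDE2A −3.56 and −3.70, FTCD −3.37 and −3.37, and LIMCH1 −3.62 and −3.15.

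**Figure D4:**
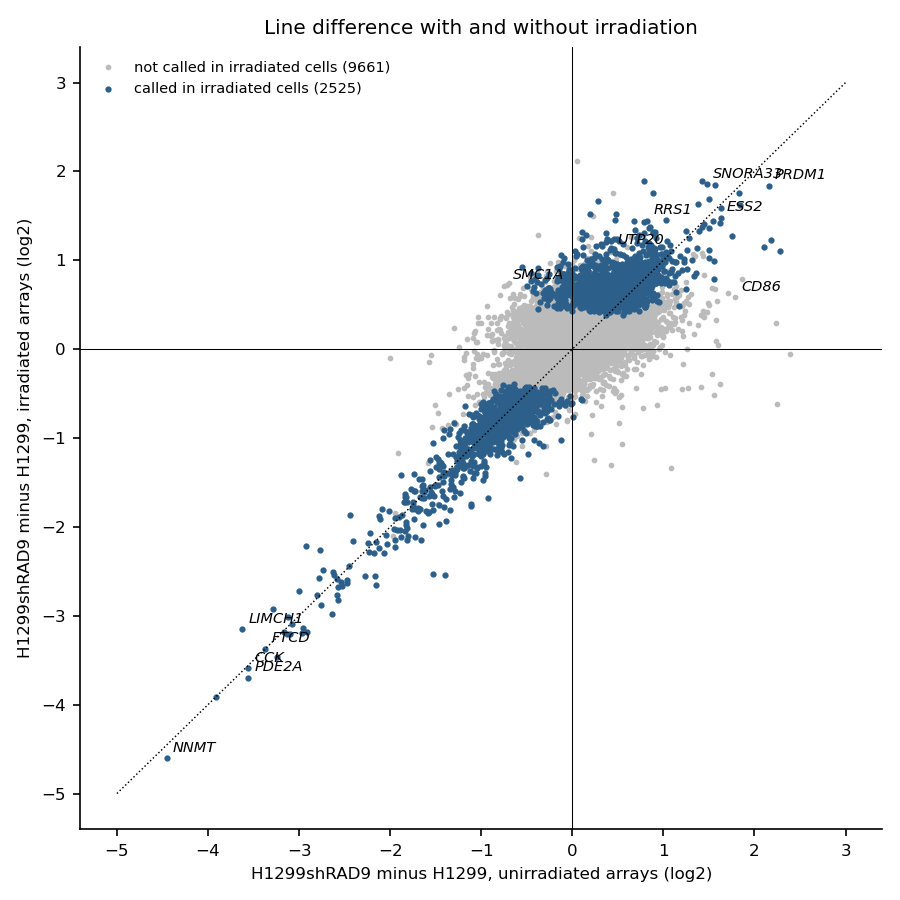
Line difference (H1299shRAD9 minus H1299, log2) of the 12186 features on the 10 unirradiated arrays (horizontal axis) and on the 20 irradiated arrays (vertical axis), with the 2525 features called in irradiated cells in blue and equal differences on the dotted line. The large falls, such as NNMT at −4.45 and −4.60, lie near the line of equal differences, while CD86 lies at 1.79 and 0.59.

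Among the genes that the study names, PRDM1 (a transcriptional repressor of lymphocytes) was at 0.1 to 2.87 (median 1.5) in H1299shRAD9 and at −1.34 to 0.64 (median −0.22) in H1299, a difference of 1.84 (SE 0.34, limma adjusted p = 0.000668). It was 3.40 in replicates 1 and 2 and 0.80 in replicates 3 to 5. STEAP1 (a membrane metalloreductase) and PMEPA1 (an inhibitor of TGF beta signalling) rose by 0.82 and 0.68, and IRF9 (the DNA-binding subunit of the interferon complex ISGF3) fell by 0.58, a call that was lost with the random block. CD86, a costimulatory ligand, differed by 1.79 in CTL (limma adjusted p = 0.00291) but by 0.59 in irradiated cells (SE 0.39, limma adjusted p = 0.261), where H1299 ranged from −1.86 to 2.2. ZNF480 had a difference of −1.30 in CTL (limma adjusted p = 0.0204) and of 0.23 in irradiated cells (SE 0.29, limma adjusted p = 0.567). The cell cycle inhibitor CDKN1A differed by −0.88 in CTL (limma adjusted p = 0.00731) and by −0.28 in irradiated cells (limma adjusted p = 0.538). Its level ranged from −1.65 to 1.73 on the irradiated H1299shRAD9 arrays of replicates 3 to 5. On bystander arrays its line difference was −0.72 in replicates 1 and 2 and −1 in replicates 3 to 5. PSMB8 (−0.36), IFITM1 (−0.83) and DOK3 (0.63) did not meet both thresholds in irradiated cells by their brightest feature. Dimmer features of the same genes were called, 1 of IFITM1 at −1 (limma adjusted p = 0.0193) and 2 of DOK3 at 1.62 (adjusted p = 0.000146) and 0.90 (adjusted p = 0.00407).

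Whether the line difference itself changed with irradiation was tested as an interaction, with line and replicate together as a block. It was called for 194 features (1.59%), 179 of them with a more positive line difference after irradiation (1.47%) and 15 with a more negative one (0.123%), but 0 features were called with 75th percentile scaling, normexp background correction, the authors' values or no block. Leaving out single arrays gave 0 to 448 calls, with 448 without H1299 CTL replicate 4. No call was left without any one of replicates 2 and 3 of H1299shRAD9 CTL, 2 and 3 of its DBP, 3 and 4 of its DBN, 3 and 5 of H1299 CTL and 3 of H1299 DBP. The largest positive values were those of 2 features of SMC1A, a cohesin subunit, at 1.47 (SE 0.35) and 1.44 (SE 0.31), and of SRRT, an RNA processing factor, at 1.44 (SE 0.33), each with a limma adjusted p of 0.061. The first SMC1A feature had means of 4.4 and 5.51 in unirradiated and irradiated H1299shRAD9 and of 5.15 and 4.8 in H1299. The largest negative values were −2.86 for the transcript PRO0471, −2.45 for an unnamed probe and −2.07 for ABO, the blood group glycosyltransferase. CD86 was not among the calls, whereas PARP1 was (1.15, SE 0.25, limma adjusted p = 0.061). In data simulated without the resemblance of same-numbered arrays, the same design recovered 24% of 2-fold interactions. Its recovery on the real arrays was not measured.

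Levels also differed by chromosome region between the lines, beyond single genes. From 60 Mb to the end of chromosome 11, which holds RAD9A, the median of 659 features above background was 0.20 lower in irradiated H1299shRAD9 than that of all features, with −0.22 in CTL and −0.19 in bystander cells. The median over this region, relative to each feature's mean, was 0.07 to 0.16 on the 10 H1299 arrays. On the 10 H1299shRAD9 arrays it was −0.28 to 0.15, with all 4 arrays of replicates 1 and 2 above 0 and all 6 of replicates 3 to 5 at −0.21 or below. So the line difference of the region was 0.00 in replicates 1 and 2 and −0.34 in replicates 3 to 5. From 50 Mb on chromosome 5 it was 0.06 and 0.23, on chromosome 10 it was −0.02 and 0.16, and on chromosome 9 it was −0.24 and 0.03. RAD9A itself lay at the 47.7th percentile of line differences in the 65 to 70 Mb window of chromosome 11 and at the 20.8th percentile of all features, so its small fall was near the middle of its neighbours. NNMT and PDE2A also lie in this region.

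**Figure D5:**
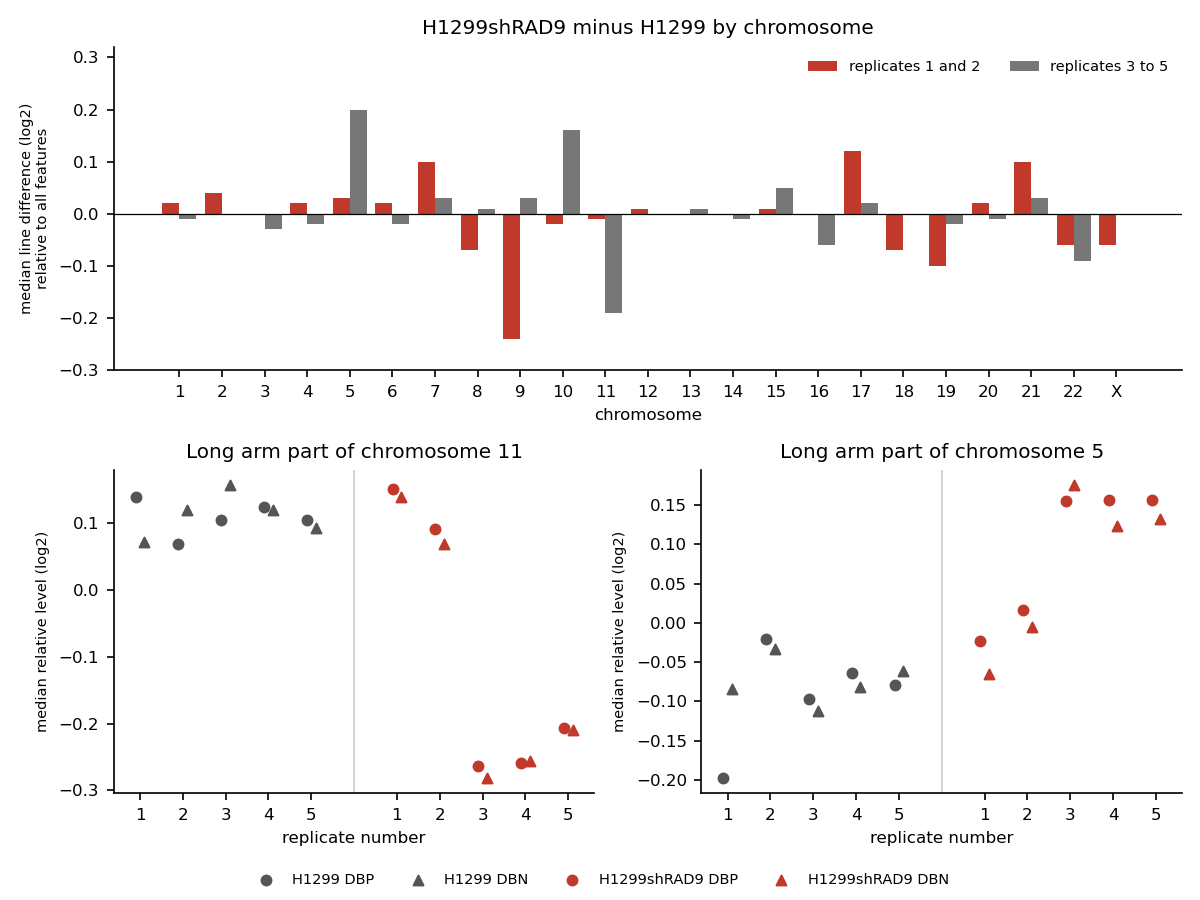
Upper panel, median line difference (log2, relative to all features) of the features of each chromosome in replicates 1 and 2 (red) and in replicates 3 to 5 (grey) of irradiated cells. Lower panels, median relative level (log2) on each of the 20 arrays for chromosome 11 from 60 Mb and chromosome 5 from 50 Mb, with H1299 in grey at the left, H1299shRAD9 in red at the right, circles for DBP and triangles for DBN; for chromosome 11 the 6 H1299shRAD9 arrays of replicates 3 to 5 lie at −0.21 or below and the other 14 arrays above 0.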

How the data were processed

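Total RNA was labelled with Cy3 and hybridised to 1-colour Agilent whole genome arrays (50 arrays, 34127 probes). Per the file headers, the deposited processed intensity of each spot is background-subtracted by Agilent Feature Extraction. A table of log2 values, normalized by the authors and deposited for 9502 features, was used as an alternative. These intensities were put on a log2 scale and centred on the median probe of each array, and a probe's spots, outlier spots aside, were averaged. Following the study's methods, a feature stayed if under 25% of the arrays failed Agilent's background test for it (20079 stayed) and if at least 20% of them lay 1.3-fold from its median (12186 stayed, 8852 genes). Positions are hg19, from the array annotation. Genes were assigned by accession (25771 probes), symbol (2207) or older symbol (499).

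Lines were compared with limma 3.58.1 in R 4.3.3, blocking on exposure group. A call needed p under 0.006 and, by the Benjamini-Hochberg method over all features, a false discovery rate below 10%. The fits were tested on simulated data, in which 82% of 2-fold changes between lines were found, and 37% of those of 1.5-fold. The simulated arrays were independent of each other, unlike same-numbered arrays of a line here. Genes named are the 10 largest rises and falls whose lines did not overlap, the 3 largest interactions in each direction, up to 4 called members of each list, and genes the study names. Others were chosen after their values were seen, and some genes under this rule are not reported here. For genes with more than 1 feature, values are those of the brightest, and for list members of the brightest that was tested. Members, lists and tests were chosen with earlier results of these data known. The number of arrays limits the precision. Alternatives were other scalings, background correction, filters, replicate, slide and scan day blocks, and leaving out each array.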

Additional observations from a re-analysis of the deposited data

Results flagged for a closer look

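Of 46 groups of 10 values examined, 5 held 1 array far from the others, and chance alone gives about 1 in 20. In H1299, TAF5L was at −1.63 on DBP replicate 2 (the nearest array was at 0.24), UTP20 at 0.83 on DBN replicate 2 (nearest 2.23) and ARHGEF4 at 0.85 on DBN replicate 1 (nearest 2.04). On the same H1299 DBN replicate 1, 83.2% of probes were above background (nearest 68.9%). In H1299shRAD9, the 5′ to 3′ index was 0.13 on DBN replicate 5 (nearest 0.03), the array that shared a slide with H1299.

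An interaction of line and irradiation was called in the main fit for SMC1A (1.47 and 1.44 by 2 features), SRRT (1.44), ABO (−2.07), PRO0471 (−2.86) and the unnamed probe A_33_P3298612 (−2.45). None of these calls was kept with 75th percentile scaling, normexp background correction, the authors' values or no replicate block. The negative values had means of −0.53 in unirradiated and −1.78 in irradiated H1299shRAD9 for PRO0471, with −2.78 and −1.16 in H1299.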

How the results depend on the processing

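The 2525 calls of the line difference moved to 1332 with replicate number within line as a random block, to 26 with slide and 256 with scan day as a fixed block, to 4838 without replicates 1 and 2 and to 1269 without replicates 3 to 5. Each array left out gave 2115 to 2758. With the replicate number as a plain replicate block across lines, 3381 were called. Same-numbered arrays of the lines correlated between −0.134 and 0.246, so the numbers do not pair the lines. The count of unirradiated line differences that are called in the same direction in irradiated cells (1188) became 21 (slide fixed), and 1080 to 1266 with each array left out. It became 771 (slide random), 577 (5′ to 3′ index as a covariate) and 2442 (without replicates 1 and 2). For these last settings the unirradiated calls were refitted too, so that the number they are a part of also changed. DBP gave 220 calls with normexp (476 to 1201 with arrays left out), and DBN 381 with normexp and 994 with a replicate block (115 to 924). The 194 interaction calls became 0 with 75th percentile scaling, normexp, the authors' values, centring on the tested features, no replicate block, slide as a random block or replicates 1 and 2 left out, 39 with quantile normalization and 128 with a random block (0 to 448 with arrays left out). The exposure interaction gave 1 call on the authors' values and 0 with each array left out. RAD9A ranged from −0.25 to −0.05.

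Named genes turned direction as follows. With slide as a fixed block these were PHGDH (0.24), DSP (0.12), GDF15 (0.14), SLC2A3 (0.14), SLC48A1 (0.09), PARP1 (−0.08), CD86 (−0.65), STAT6 (2.73), ZNF480 (−0.62), CDKN1A (0.28) and IRF9 (0.13). With scan day they were PHGDH (0.08), GDF15 (0.08), BRCA2 (−0.06), CD86 (−0.74), STAT6 (2.05), ZNF480 (−0.09), CDKN1A (0.27) and IRF9 (0.06). STAT6 and ADCY7 turned with normexp (0.10 and 0.19) and on the authors' values (0.58 and 1.06). STAT6 was 1.92 without replicates 1 and 2, and MGMT 0.13 and ADCY7 2.25 without replicates 3 to 5. With each array left out, STAT6 ranged from −0.58 to 0.12 and ADCY7 from −0.43 to 0.11. Scan day, centring on tested features and the replicate sets were chosen after seeing the data. The cause was not tested.

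DOK3 and IFITM1 were called with the replicate block, and TAF5L, MUC1, NBN, BRCA2, MSH3, SYNPO, SLC2A3, SOCS1, FTL, SLC48A1, COL6A1, IFI16, PARP1, MAPK13, MAP2K3, CANX, HLA-F, HLA-E and IRF9 were not called with the random block within lines.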
